A study of Mus musculus with 3 samples.

Results

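The mitochondrial genome of the mouse encodes 13 protein subunits of the respiratory chain, and the 10 genes described here were taken by symbol from the 32285 genes that the files list. They are mt-Nd1, mt-Nd2, mt-Nd4, mt-Nd5 and mt-Nd6, which encode subunits of complex I, mt-Cytb of complex III, mt-Co1, mt-Co2 and mt-Co3 of complex IV, and mt-Atp6 of the ATP synthase. All 10 were found, and all 10 passed the filter used for genes in general, an average of 10 CPM or more over the 3 libraries. CPM is a gene's number of UMIs for every 1000000 UMIs in the cells of a library. A UMI, or unique molecular identifier, counts 1 captured RNA molecule. The other 3 mitochondrial mRNAs in the files, mt-Nd3, mt-Nd4l and mt-Atp8, are given where they stand beside a member. No mitochondrial rRNA or tRNA is listed.

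The cells were E14 mouse embryonic stem cells of a 129/Ola background, kept in serum with leukaemia inhibitory factor. Their polyadenylated RNA was measured by droplet single-cell sequencing with 3' chemistry after 10 uM tubercidin, an adenosine analogue, for 3 h (group tub_3h) or 6 h (tub_6h), or after the solvent DMSO for 6 h (control). Each group is 1 library of this 1 line, so no difference between groups was tested, a difference between cultures or libraries cannot be told apart from treatment, and every interval is a 95% interval for counting error only. There was no control library at 3 h, so a ratio of 3 h to the control also holds a difference in time. Where 3 values stand in a row without labels, they are for the control, 3 h and 6 h in that order, and 2 log2 ratios are 3 h and 6 h against the control.

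The 3 libraries held 29353325 to 115656427 UMIs, and the cells used numbered 2031 (control), 2365 (3 h) and 2926 (6 h). The median cell had 48452 UMIs in control cells, 11877 after 3 h and 8004.5 after 6 h, and sequencing depth cannot be told apart from RNA content. Each pair of libraries shared 1 cell barcode. The 8 stem cell markers were all detected in every library, with summed levels of 3785 to 5178 CPM. Markers of other cell types summed to 6.69 to 10.8 CPM for primitive endoderm (6 genes), 0.829 to 1.94 CPM for fibroblasts (6 genes, 2 of them at 0 in every library), 0 to 0.891 CPM for the 2-cell state (5 genes, of which 2 to 5 were at 0) and 27.8 to 38.1 CPM for trophoblast (6 genes).

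Mitochondrial DNA is read from both strands as long RNAs that hold many genes. The RNA from the heavy-strand promoter carries the rRNAs first and then most of the mRNAs, and excision of the tRNAs between them frees the single mRNAs, which are then given poly(A) tails by a mitochondrial poly(A) polymerase. mt-Nd6 is the one mRNA read from the opposite promoter. Since all heavy-strand mRNAs leave the same precursor, their unequal levels are generally attributed to unequal stability and processing. Embryonic stem cells rely on both glycolysis and respiration, and keep immature mitochondria.

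All members lie on chrM in the mm10 build, the GRCm38 assembly, each as a single-exon gene in GENCODE M21. In the order of heavy-strand transcription mt-Nd1 is at chrM:2751-3707, mt-Nd2 at chrM:3914-4951, mt-Co1 at chrM:5328-6872, mt-Co2 at chrM:7013-7696, mt-Atp6 at chrM:7927-8607 and mt-Co3 at chrM:8607-9390. They are followed by mt-Nd4 at chrM:10167-11544, mt-Nd5 at chrM:11742-13565 and mt-Cytb at chrM:14145-15288, while mt-Nd6 is on the minus strand at chrM:13552-14070. The gene models hold little beyond the coding sequence. Between the end of mt-Nd5 and the start of mt-Cytb lie 579 bases that belong to no heavy-strand mRNA in the annotation, so reads from an mt-Nd5 transcript that runs into them would not be counted for it.

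The annotated ends are shown because tails are added at transcript ends and the assay captures RNA by the tail. A transcript can end elsewhere than its annotation, as an mt-Nd5 transcript that runs on would. Where the tails sit, and whether every member carries one, was not examined here. Of the 10 members, 3 (mt-Co3, mt-Nd4 and mt-Cytb) end in the annotation with 1 base beyond the last full codon, a T that becomes a TAA stop only when the tail supplies the remaining A letters. The last 30 bases of 5 members follow 5' to 3', from the GENCODE M21 transcripts on GRCm38, with the stop codon or the lone T in capitals.
mt-Nd5 (chrM:13536-13565, plus strand): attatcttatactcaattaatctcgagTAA
mt-Nd4 (chrM:11515-11544, plus strand): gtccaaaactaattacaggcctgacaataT
mt-Cytb (chrM:15259-15288, plus strand): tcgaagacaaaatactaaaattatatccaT
mt-Co2 (chrM:7667-7696, plus strand): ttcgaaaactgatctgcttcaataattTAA
mt-Nd6 (chrM:13552-13581, minus strand): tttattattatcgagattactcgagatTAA

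Runs of A inside a transcript can also be captured by an oligo-dT primer. A run of at least 6 A letters (AAAAAA, searched on the transcript strand) was found in 5 of the 10 members: mt-Nd1, mt-Nd2, mt-Co1, mt-Nd4 and mt-Nd5. The run on the other strand, TTTTTT, was found in 2 members, mt-Nd6 (3 times) and mt-Cytb (1 time). Among all protein-coding transcripts at least as long, cut to the same length from their ends, 39.3% hold the A run at the length of mt-Nd1 and 56.1% at that of mt-Nd5. The run nearest to an end lies 82 bases before the end of mt-Nd1, and mt-Nd5 has runs 143 and 923 bases before its end. They are shown with 15 bases on either side and the run in capitals, together with the longest run, which is in mt-Nd2.
mt-Nd1 (chrM:3605-3640, plus strand): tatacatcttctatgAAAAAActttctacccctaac
mt-Nd5 (chrM:13402-13437, plus strand): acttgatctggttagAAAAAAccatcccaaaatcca
mt-Nd5 (chrM:12621-12657, plus strand): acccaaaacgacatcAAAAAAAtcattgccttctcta
mt-Nd2 (chrM:4037-4074, plus strand): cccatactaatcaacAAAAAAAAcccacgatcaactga

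Nuclear copies of mitochondrial DNA limit what can be assigned to a member. Annotated pseudogenes match all or nearly all of mt-Co2 (Gm28661), mt-Atp6 (Gm10925) and mt-Co3 (Gm28437) with 100% identity, 876 bases of mt-Nd4 (Gm28439) with 100%, and 483 bases of mt-Co1 (Gm29216) with 99.8%. None of these copies is listed in the files, so the counts of these 5 members are uncertain as to their source. For mt-Nd5, mt-Nd6, mt-Cytb and mt-Nd2 the best annotated copies matched at 92.4%, 93.6%, 92.9% and 96.7%, and for mt-Nd1 no copy was found among annotated transcripts.

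The level of the 10 genes together differed little between libraries when scaled to all UMIs. They held 3013320 of the UMIs in control cells (2.87%, interval 2.870 to 2.876%), 1008444 in the 3 h cells (3.37%, 3.367 to 3.380%) and 694782 in the 6 h cells (2.81%, 2.808 to 2.821%). The log2 ratio of the summed level was 0.23 at 3 h (interval 0.229 to 0.235) and -0.03 at 6 h (-0.033 to -0.026) against the control, beside medians of -0.27 and -0.12 over all 7884 genes that average 10 CPM or more. In UMIs per cell, with no scaling, the 10 genes stood at 1484 in control cells, 426 after 3 h and 237 after 6 h, log2 ratios of -1.80 and -2.64, while the median of all genes was -2.25 and -2.65. The direction of the sum at 3 h thus depended on the scaling, and the proportions among the 10 genes, which no factor per library can alter, are given after the levels.

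The order of the members by level per length was nearly the same in the 3 libraries. Per kb of annotated length, mt-Co3 led in every library, with 8263 CPM per kb in control cells, 9553 after 3 h and 9035 after 6 h. It was followed by mt-Atp6 at 7231, 7624 and 5187 CPM per kb and mt-Co2 at 6808, 5852 and 4332 CPM per kb. Then came mt-Cytb at 2812, 4312 and 2871, mt-Co1 at 2611, 3452 and 2648, and mt-Nd1 at 2463, 2245 and 2263 CPM per kb. mt-Nd2 and mt-Nd4 exchanged places between libraries, with 1168, 1353 and 1925 CPM per kb for mt-Nd2 and 1134, 1781 and 1692 for mt-Nd4. mt-Nd5 and mt-Nd6 were last in every library, at 148, 421 and 368 CPM per kb and at 32.5, 20.5 and 52.6 CPM per kb. Since 3' chemistry captures transcript ends, these values per length order the genes only roughly. Without division by length the order differed more between libraries. In the control mt-Co1 stood at 4034 CPM, below mt-Atp6 (4925) and mt-Co2 (4656). It was above both after 3 h (5333 against 5192 and 4003) and after 6 h (4092 against 3532 and 2963). In CPM mt-Nd4 was below mt-Nd1 in the control and above it in both treated libraries, and above mt-Nd2 in every library.

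**Figure D1:**
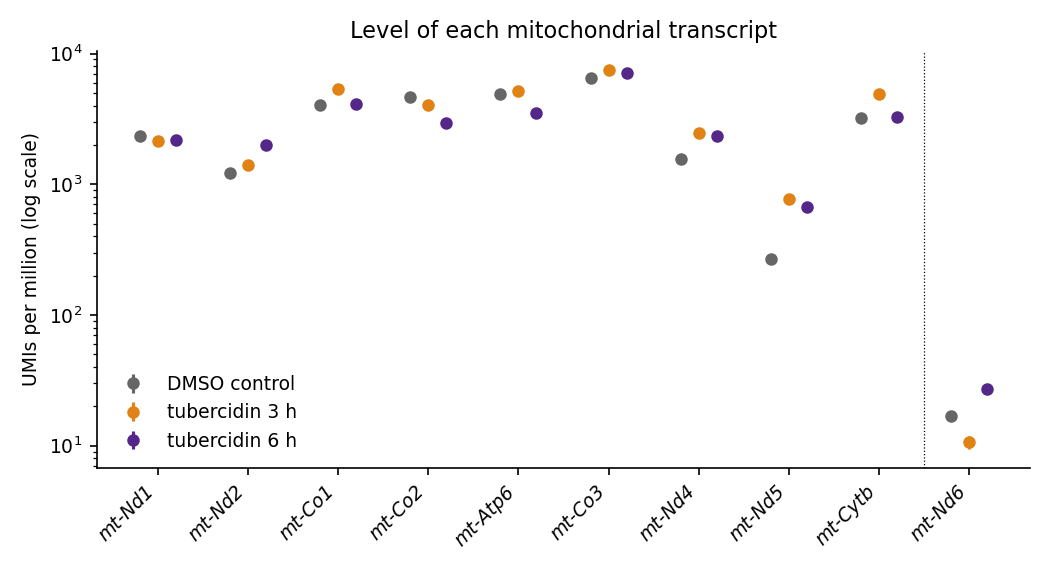
Level of each of the 10 mitochondrial transcripts (x axis, in the order of heavy-strand transcription, with the light-strand transcript mt-Nd6 to the right of the dotted line) in CPM on a log axis. Each point is 1 library and bars are 95% counting intervals, mostly smaller than the points. mt-Nd5 stands at 269 in the control and at 768 and 672 after tubercidin, and mt-Nd6 is the lowest transcript in each library.

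The largest difference of a single member was in complex I. mt-Nd5, a core subunit of the proton-pumping membrane arm, was at 269 CPM in control cells (28237 UMIs), 768 CPM after 3 h (22966 UMIs) and 672 CPM after 6 h (16576 UMIs). Both treated libraries were high, 2.85-fold at 3 h (interval 2.80 to 2.90) and 2.49-fold at 6 h (2.45 to 2.54). At 3 h 99.6% of all genes tested had a lower log2 ratio than its 1.51, and at 6 h 98.9% had a lower one than its 1.32. As UMIs per cell it was lower in both, at -0.52 and -1.29. mt-Nd4, another pump subunit, was at 1562, 2455 and 2332 CPM, also high in both treated libraries, with log2 ratios of 0.65 and 0.58. mt-Nd2 was at 1212, 1404 and 1998 CPM, with log2 ratios of 0.21 and 0.72 against the control and 0.51 between the treated libraries. In CPM the larger step thus came between 3 h and 6 h, but this depended on the scaling. With median-of-ratios factors mt-Nd2 had 0.45 at 3 h and 0.28 between the treated libraries, and with TMM factors 0.40 and 0.29. mt-Nd1 was at 2357, 2149 and 2166 CPM, slightly low in both treated libraries, but at 3 h its log2 ratio of -0.13 was 0.11 with median-of-ratios factors, 0.058 with TMM factors and 0.013 with free RNA subtracted. Its interval between 6 h and 3 h (log2 -0.005 to 0.028) included 0.

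For complex III, mt-Cytb, the cytochrome b at the quinone sites, was at 3217 CPM in control cells, 4933 CPM after 3 h and 3285 CPM after 6 h. Only the 3 h library stood apart among these 3, with log2 ratios of 0.62 at 3 h and 0.03 at 6 h, the latter on the other side of 0 with TMM factors and after thinning.

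The 3 mitochondrial subunits of complex IV differed from each other in their ratios. mt-Co1, which carries the haem groups and a copper of the oxygen-reducing centre, was at 4034, 5333 and 4092 CPM (log2 ratios of 0.40 and 0.02, the latter -0.011 with TMM factors and -0.082 after thinning). mt-Co2, which receives electrons from cytochrome c, was at 4656, 4003 and 2963 CPM (-0.22 and -0.65), lowest at 6 h, with 0.023 at 3 h under median-of-ratios factors. mt-Co3, a structural core subunit, was at 6478, 7490 and 7084 CPM (0.21 and 0.13). The UMI ratio of mt-Co1 to mt-Co2, whose products meet in the same enzyme, was 0.866 in control cells, 1.33 after 3 h and 1.38 after 6 h.

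The ATP synthase subunit mt-Atp6, part of the proton channel, was at 4925 CPM in control cells, 5192 CPM after 3 h and 3532 CPM after 6 h, with log2 ratios of 0.08 and -0.48. Only the 6 h library was low.

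A size rule was used to count differences, at least 25% above or, the same step downwards, at least 20% below the level compared with. At 3 h 4 of the 10 genes were above it (mt-Nd5, mt-Nd4, mt-Cytb and mt-Co1) and 1 below (mt-Nd6), against 9.89% and 45.4% of all genes tested, 55.3% either way. At 6 h 4 were above (mt-Nd5, mt-Nd2, mt-Nd6 and mt-Nd4) and 2 below (mt-Co2 and mt-Atp6), against 17.1% and 33.4%, 50.5% either way. In 6 h against 3 h 2 genes were above (mt-Nd6 and mt-Nd2) and 4 below (mt-Cytb, mt-Atp6, mt-Co2 and mt-Co1), against 28.0% and 7.75%, 35.7% either way. Past 2-fold, mt-Nd5 alone was higher against the control at either time, against 0.888% of all genes at 3 h and 2.33% at 6 h, and no member was lower, against 5.54% and 4.41%. In 6 h against 3 h mt-Nd6 alone was more than 2-fold higher, against 1.64% of genes, and no member was lower, against 0.165%. The median log2 ratio of the members was 0.21, 0.08 and -0.14 in the 3 comparisons, beside -0.27, -0.12 and 0.14 for all genes. Both treated libraries are compared with the same control, which had DMSO for 6 h. The splits rest on the scaling. With median-of-ratios factors, TMM factors, free RNA subtracted or cells weighted equally the split was 6 above and 1 below at 3 h. With either kind of factor it was 1 above and 5 below in 6 h against 3 h. As UMIs per cell all 10 were below the control at each time.

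**Figure D2:**
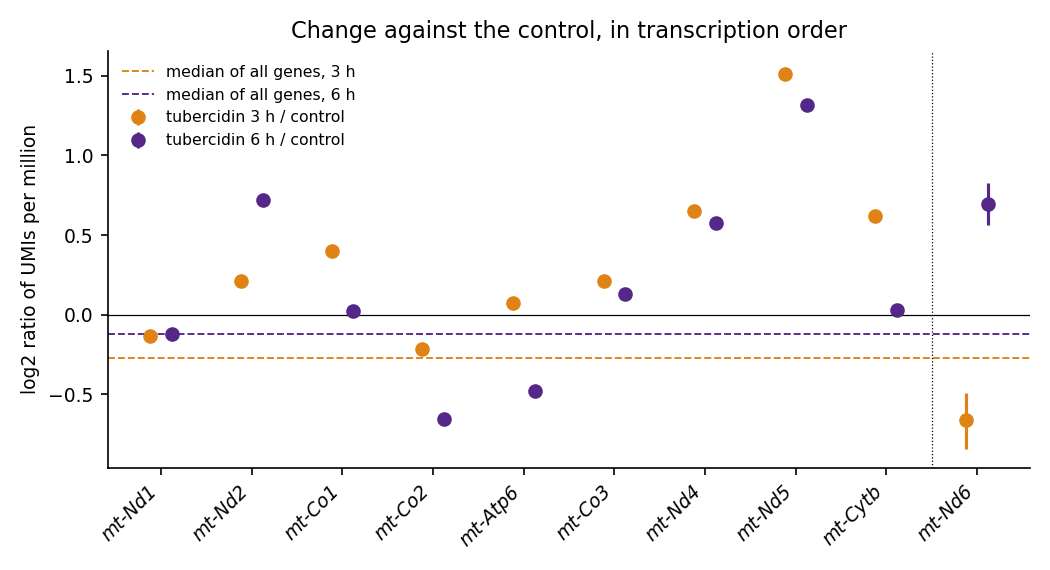
Log2 ratio of the level in CPM of each treated library to the control (y axis) for the 10 transcripts in the order of heavy-strand transcription, with mt-Nd6 to the right of the dotted line; points are single libraries, bars are 95% counting intervals and dashed lines are the medians of all 7884 genes. mt-Nd5 is highest at both times, at 1.51 and 1.32, and mt-Nd6 lies on opposite sides of 0.

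The proportions within the pool do not depend on scaling. mt-Nd5 made up 0.937% of the 10 genes' UMIs in control cells, 2.28% after 3 h and 2.39% after 6 h. mt-Nd4 made up 5.44%, 7.28% and 8.28%, and mt-Nd2 4.22%, 4.16% and 7.1%. By contrast, mt-Co2 made up 16.2%, 11.9% and 10.5%, and mt-Atp6 17.1%, 15.4% and 12.5%. The share of mt-Cytb was 11.2% in control cells, 14.6% after 3 h and 11.7% after 6 h, a peak at 3 h alone. mt-Co1 made up 14.0%, 15.8% and 14.5%, mt-Co3 22.5%, 22.2% and 25.2%, and mt-Nd1 8.21%, 6.37% and 7.69%. Measured this way, 4 members had a larger share than in the control at both times (mt-Nd4, mt-Nd5, mt-Co1 and mt-Cytb), 3 a smaller one (mt-Nd1, mt-Co2 and mt-Atp6), and 3 a smaller share at 3 h and a larger one at 6 h (mt-Nd2, mt-Co3 and mt-Nd6). These directions were the same under the other choices of cells, free RNA, weights and thinning, apart from the share of mt-Nd1 at 6 h and that of mt-Nd2 at 3 h. In cells of like depth mt-Nd1 made up 7.32% in the control and 8.07% at 6 h, and with free RNA subtracted mt-Nd2 made up 4.129% in the control and 4.134% at 3 h.

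**Figure D3:**
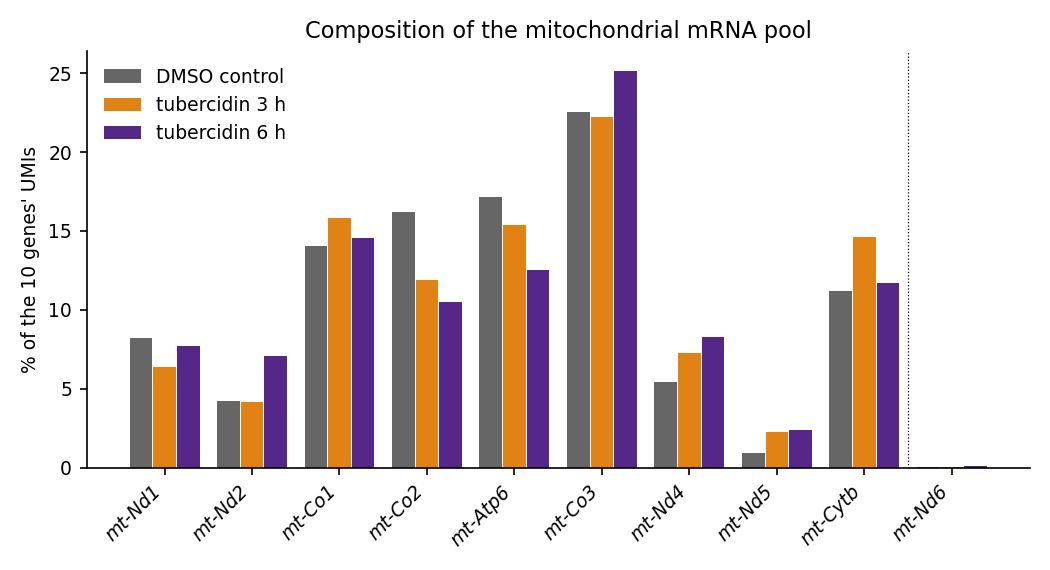
Percent of the 10 genes' UMIs held by each transcript (y axis, from 0) in the 3 libraries, 1 bar for each library, in the order of heavy-strand transcription with mt-Nd6 last. mt-Co2 goes from 16.2% to 11.9% and 10.5%, mt-Nd2 from 4.22% to 4.16% and 7.1%, and mt-Cytb peaks at 3 h with 14.6%.

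The proportions varied little with cell depth within a library. In the 4 quartiles of cells by UMIs, whose median depths ran from 34817 to 70049 in the control and from 4567.5 to 12289 at 6 h, the share of mt-Nd5 stayed between 0.900 and 0.962% in the control, 2.27 and 2.31% at 3 h and 2.37 and 2.44% at 6 h. The share of mt-Co2 stayed between 16.1 and 16.3%, 11.7 and 12%, and 10.4 and 10.7%. The ranges of mt-Nd5 and mt-Co2 did not overlap between the control and either treated library. For mt-Nd1 the ranges of the control (7.75 to 8.51%) and 6 h (7.21 to 7.98%) did overlap. The ranges of the control and 3 h overlapped for mt-Nd2 (4.21 to 4.25% and 4.09 to 4.26%). They also did for mt-Co3 (21.9 to 23.5% and 21.7 to 22.9%). Quartiles by the cells' own share of the 10 genes gave 0.827 to 1.14%, 2.16 to 2.47% and 2.30 to 2.46% for mt-Nd5, again with a gap to the control. In these quartiles mt-Nd2 and mt-Co3 overlapped with the control at 3 h, and mt-Nd1, mt-Co1, mt-Cytb and mt-Co3 at 6 h. In single cells with at least 100 UMIs of the 10 genes, the median share of mt-Nd5 was 0.896% in control cells (10th to 90th percentile 0.537 to 1.43%), 2.22% after 3 h (1.18 to 3.52%) and 2.26% after 6 h (0.984 to 3.95%). For mt-Co2 the medians were 16.2% (14.2 to 18.0%), 11.8% (8.82 to 14.5%) and 10.4% (7.47 to 13.4%).

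**Figure D4:**
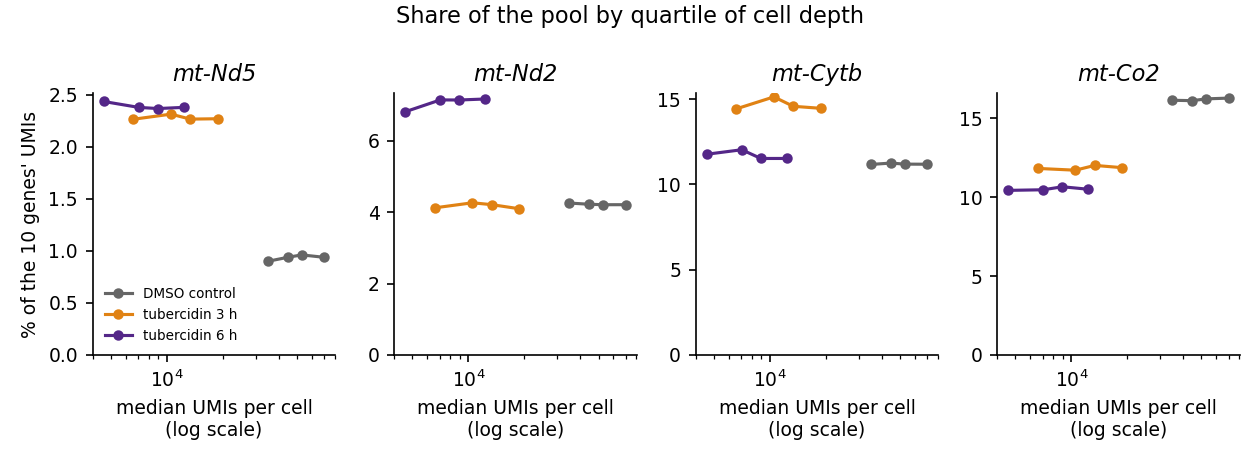
Share of the 10 genes' UMIs (y axis, percent, from 0) held by 4 transcripts in quartiles of cells by total UMIs, plotted at the quartile's median UMIs per cell (x axis, log scale), 1 line for each library. The lines are nearly level within a library, with mt-Nd5 between 0.900 and 0.962% in the control and between 2.27 and 2.44% in the treated libraries.

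The scaled levels behaved differently from the proportions in cells of like depth, an alternative added after seeing the data. Between 11061 and 22122 UMIs there were 68 control cells, 1212 at 3 h and 510 at 6 h. The 68 were the shallowest of 2031 control cells, whose median was 48452 UMIs, while the medians were 11877 at 3 h and 8004.5 at 6 h. They were not typical of the control, where the 10 genes took 2.87% over all cells. The 10 genes took 7.32% of the UMIs in those 68 control cells, against 3.12% and 2.58% in the treated ones, so that the log2 ratio of the summed level was -1.23 at 3 h and -1.50 at 6 h and that of mt-Nd5 -0.06 and -0.30. The share of mt-Nd5 within the pool was nevertheless 1.02%, 2.30% and 2.35%, and that of mt-Co2 16.3%, 12% and 10.4%. The direction of the level in CPM thus depended on which cells were compared, and the direction of the shares of mt-Nd5 and mt-Co2 did not.

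The light-strand transcript mt-Nd6, which encodes a hydrophobic complex I subunit, had very few UMIs. The assay captures RNA by the tail, and whether it captures mt-Nd6 as well as the heavy-strand members was not tested. Its counts are therefore no measure of how rare the transcript is. mt-Nd6 was at 16.9 CPM in control cells (1768 UMIs), 10.6 CPM after 3 h (318 UMIs) and 27.3 CPM after 6 h (674 UMIs), lowest at 3 h and highest at 6 h. Per 10000 UMIs of the 9 heavy-strand members there were 5.87 of mt-Nd6 in control cells (interval 5.60 to 6.15), 3.15 after 3 h (2.82 to 3.52) and 9.71 after 6 h (8.99 to 10.5). The log2 ratio of mt-Nd6 to the heavy-strand members was thus -0.90 at 3 h (-1.07 to -0.72), 0.73 at 6 h (0.60 to 0.85) and 1.62 between them (1.43 to 1.81). In every depth quartile the 3 h library was lowest, at 2.90 to 3.44 per 10000, the control between 5.68 and 6.26, and 6 h highest, at 8.13 to 10.5. Thinned to 4000 UMIs a cell, 7.19% of control cells held a UMI of mt-Nd6 (6.10 to 8.4%, Clopper-Pearson), against 4.37% of cells at 3 h (3.56 to 5.30%) and 9.88% of those at 6 h (8.77 to 11.1%). Unthinned the shares were 52.7%, 11.8% and 19.1%. In barcodes too poor in UMIs to be cells mt-Nd6 was at 35.2, 17.3 and 57.3 CPM, above its level in cells of the same library, so its UMIs in cells cannot be told apart from free RNA one by one. With free RNA subtracted at 10% of UMIs the ratios to the heavy strand were -0.94 and 0.62. In the cells of like depth the ratio at 6 h was 0.42, with an interval of -0.0096 to 0.843 that includes 0. mt-Nd6 overlaps the end of mt-Nd5 by 14 bases on the other strand. The rest of it lies opposite the 579 bases between mt-Nd5 and mt-Cytb. Whether counting used strand is not given in the sources used here. If it did not, RNA of mt-Nd5 that runs into these bases would count for mt-Nd6, so the counts of mt-Nd6 are uncertain.

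Position along the heavy strand was compared as the last 3 members (mt-Nd4, mt-Nd5 and mt-Cytb) against the first 3 (mt-Nd1, mt-Nd2 and mt-Co1). Their UMI ratio was 0.664 in control cells, 0.918 after 3 h and 0.762 after 6 h, so the distal genes weighed more in both treated libraries. The log2 ratio against the control was 0.47 at 3 h (interval 0.46 to 0.48) and 0.20 at 6 h (0.19 to 0.21), and -0.27 between 6 h and 3 h. The pattern was not a smooth gradient, as mt-Co2 and mt-Atp6, in the middle, had lower log2 ratios than mt-Nd1 at 6 h. Across the 9 heavy-strand members the correlation of log2 ratio with start position was r = 0.66 (Pearson) and rho = 0.65 (Spearman) at 3 h, and r = 0.27 and rho = 0.37 at 6 h. Without mt-Nd5 the r at 6 h was -0.0039. With mt-Nd3, mt-Nd4l and mt-Atp8 added, r over 12 heavy-strand genes was 0.35 at 3 h and 0.12 at 6 h (rho 0.38 and 0.22). These genes share libraries, a precursor and a base composition rich in A and T, and the values describe 9 or 12 genes only.

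The log2 ratio was also set against annotated length. Across the same 9 genes r was 0.86 and rho 0.87 at 3 h, and 0.77 and 0.68 at 6 h. Without mt-Nd5, the longest at 1824 bases, r was 0.73 and 0.57. For 6 h against 3 h, r with length was 0.069 (rho 0.17) and r with start position -0.52 (rho -0.52). The control level in CPM gave r = -0.59 at 3 h and -0.75 at 6 h (rho -0.60 and -0.68), and -0.29 and -0.62 without mt-Nd5. With mt-Nd3, mt-Nd4l and mt-Atp8 added, r with length was 0.76 and 0.74 over 12 genes. mt-Nd4l and mt-Atp8 share an mRNA with mt-Nd4 and mt-Atp6, so for these genes the annotated length is not that of the mRNA. Over the same 12 genes r with the control level was -0.059 and -0.23. The shortest heavy-strand members, mt-Atp6 (681 bases) and mt-Co2 (684 bases), had the lowest ratios at 6 h. The correlation of start with length was 0.31 over the 9 genes, and the A content of the transcripts, 29.5 to 36.9%, had an r of 0.11 at 3 h and 0.35 at 6 h with the ratio. Among the 5 members with the A run the log2 ratios ran from -0.13 to 1.51 at 3 h, and the part of such runs in the ratios was not tested.

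**Figure D5:**
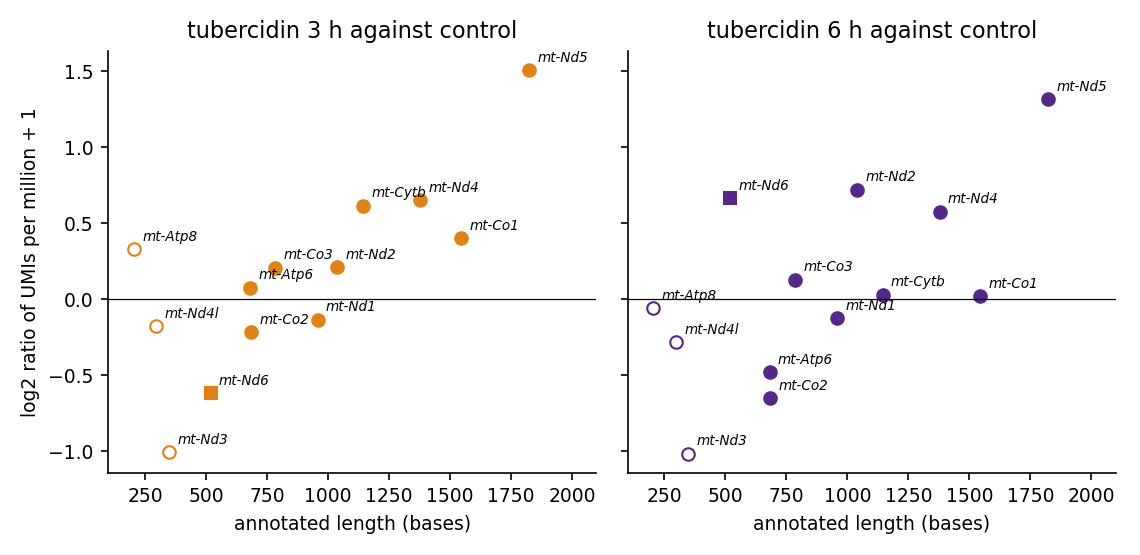
Log2 ratio against the control (y axis, CPM + 1) by annotated transcript length in bases (x axis) at 3 h (left) and 6 h (right). Filled circles are the 9 heavy-strand members, the square is mt-Nd6, and open circles are mt-Nd3, mt-Nd4l and mt-Atp8, which are not members; mt-Nd5, at 1824 bases, is highest in both panels and mt-Nd3 lowest.

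The 3 mitochondrial mRNAs outside the group are given for comparison. mt-Nd3, a small complex I subunit encoded between mt-Co3 and mt-Nd4, was at 444 CPM in control cells, 221 CPM after 3 h and 219 CPM after 6 h, and with log2 ratios of -1.004 and -1.02 had the lowest values of the 13 mRNAs. mt-Nd4l precedes mt-Nd4, overlaps it by 7 bases and is known to share its mature mRNA. It was at 250, 221 and 205 CPM although mt-Nd4 was higher in the treated libraries, and the UMI ratio of mt-Nd4 to mt-Nd4l was 6.25, 11.1 and 11.4. mt-Atp8 and mt-Atp6 also share an mRNA and overlap by 43 bases. Their ratio, mt-Atp6 to mt-Atp8, was 39.1, 32.7 and 29.2, with mt-Atp8 at 126, 159 and 121 CPM. Genes on 1 mRNA were therefore not counted in a fixed ratio across these libraries.

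In RNA outside cells, taken as the barcodes ranked after the first 5000 and within the first 15000 by UMIs, the 10 genes were abundant in the control and scarce after tubercidin. They took 3.47% of these UMIs in the control, more than in cells, and 1.30% at 3 h and 1.61% at 6 h, less than in cells. All 10 members were at a higher CPM outside than inside cells in the control, but mt-Nd6 alone at 3 h and at 6 h. Within the pool outside cells mt-Nd5 made up 0.819%, 2.24% and 2.46% of the 10 genes' UMIs, mt-Co2 15.6%, 11.1% and 10.1%, and mt-Nd2 4.87%, 4.86% and 8.03%, values near those in cells of the same library. mt-Nd6 stood apart, with 0.101%, 0.133% and 0.356% outside cells against 0.0587%, 0.0315% and 0.0970% inside. Its ratio to the heavy strand outside cells at 3 h was above that of the control (13.3 against 10.1 per 10000, log2 0.39 with an interval of -0.14 to 0.92 that includes 0), while in cells it was below.

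The spread between cells was described at 4000 UMIs a cell, which removed 122 of the 3 h cells, 284 of the 6 h cells and 0 control cells. The median cell then held 111 UMIs of the 10 genes in control cells (10th to 90th percentile 83 to 154), 126 after 3 h (86 to 195) and 109 after 6 h (74 to 150). The variance over the mean of this sum was 26.4, 36.3 and 10.3, lowest at 6 h, although the range between percentiles was like that of the control. A UMI of mt-Nd5 was found in 64.5% of control cells (62.4 to 66.6%), 93.1% of 3 h cells (92.0 to 94.1%) and 90.6% of 6 h cells (89.4 to 91.7%), and unthinned in 99.7%, 99.7% and 97.1%. Across the thinned cells mt-Co3 correlated with the other heavy-strand members with a median r of 0.67 in control cells, 0.73 after 3 h and 0.48 after 6 h. For mt-Nd5 the median r was 0.28, 0.52 and 0.24, at mean counts of 1.15, 3.27 and 2.65 UMIs a cell. Cells over 10% mitochondrial UMIs numbered 26 in control cells, 124 after 3 h and 50 after 6 h and held 1.56%, 6.24% and 2.31% of the 10 genes' UMIs. Leaving them out gave a log2 ratio of the sum of 0.18 at 3 h and -0.04 at 6 h.

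The partners encoded in the nucleus gave a reference for each complex. For complex I, the 5 members summed to 5418 CPM in control cells, 6786 after 3 h and 7194 after 6 h, log2 ratios of 0.32 and 0.41, against 0.09 and 0.20 for the sum of 37 nuclear subunits. For complex III, mt-Cytb had 0.62 and 0.03 against 0.05 and 0.32 for 9 nuclear subunits, so the order of the genomes differed between the times. For complex IV, the 3 members had 0.15 and -0.10 against 0.22 and 0.15 for 11 nuclear subunits. For the ATP synthase, mt-Atp6 had 0.08 and -0.48 against 0.17 and 0.15 for 15 nuclear subunits. The UMI ratio of mt-Atp6 to its nuclear partners was 0.600 in control cells, 0.564 after 3 h and 0.388 after 6 h, the lowest at 6 h.

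Single nuclear subunits went either way. Beside the counts that follow, the shares over all genes tested were 9.89% above and 45.4% below at 3 h, and 17.1% above and 33.4% below at 6 h. Of the 37 of complex I, 4 were above the same size rule and 5 below at 3 h, and 10 and 8 at 6 h, from Ndufv1 at a log2 ratio of 0.67 and Ndufa1 at -0.87 at 3 h to Ndufs6 at 0.81 and Ndufb1-ps at -1.19 at 6 h. Of the 9 of complex III, 2 were higher and 3 lower at 3 h, and 4 and 3 at 6 h, with Uqcr10 at 0.76 and Uqcrc2 at -0.92 at 6 h. Of the 11 of complex IV, 3 were higher and 2 lower at 3 h, and 2 and 2 at 6 h. Cox4i1, the regulatory subunit, was at 1458, 2704 and 2786 CPM, and Cox7c at 1216, 862 and 659 CPM. Of the 15 of the ATP synthase, 5 were higher and 2 lower at 3 h, and 5 and 3 at 6 h, with Atp5g1 at 0.66 and Atp5g2 at -0.88 at 6 h, both genes for the same ring subunit.

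Of the machinery that makes mitochondrial RNA, 9 of 13 genes for transcription and replication reached a mean of 10 CPM. At 3 h 1 was above the size rule and 5 below, and at 6 h 1 and 6, with median log2 ratios of -0.49 and -0.45. Over all genes 45.4% were below at 3 h and 33.4% at 6 h, with medians of -0.27 and -0.12, so the share at 3 h was near that of genes in general. Tfam, which packages mitochondrial DNA and opens its promoters, was at 92.9, 51.4 and 60.4 CPM, low in both treated libraries. Mterf3, a repressor of mitochondrial transcription, was at 26.4, 12.7 and 13.1 CPM. The higher gene was Polg2, the accessory subunit of the mitochondrial DNA polymerase, at 9.43, 23.7 and 22.0 CPM. Polrmt, the RNA polymerase itself, was at 14.1, 13 and 14.0 CPM.

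Among genes for processing, stability and translation of mitochondrial RNA 18 of 20 reached that level, with 1 higher and 5 lower at 3 h and 2 and 7 at 6 h, beside 45.4% and 33.4% of all genes lower. Trmt10c, a subunit of the RNase P that cuts tRNAs from the precursor, was at 36.5, 16.0 and 13.2 CPM, the lowest ratios of this list at -1.14 and -1.40. Grsf1, a protein of mitochondrial RNA granules, was at 36.1, 17.2 and 21.1 CPM. Tbrg4, of a family of mitochondrial RNA-binding proteins, was at 39.5, 53.6 and 72.4 CPM and Taco1, which promotes translation of mt-Co1, at 18.6, 23.4 and 27.2 CPM. Whether these levels relate to the members was not tested.

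The nuclear genes whose pattern over the 3 libraries was nearest to that of the summed members were Rpl24, Smarcb1, Rpl23, Ybx1 and Kars, chosen by the Euclidean distance of the log2 ratios at 3 h and 6 h from 1535 genes that average 100 CPM or more. Rpl24 was at 2445, 2929 and 2406 CPM, a distance of 0.029, and Kars, the last of the 5, at a distance of 0.042. No gene of the 1535 lay within 0.1 of mt-Nd5, while 58 lay within 0.1 of mt-Nd1.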

How the data were processed

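Single-cell RNA of 3 libraries was analysed, 1 for each of control, tub_3h and tub_6h. The authors deposited unnormalised UMI counts for every barcode. The file headers name Cell Ranger 7.1.0, and the submitters' processing notes name mm10. Annotation and intron counting are not given in the sources used here.

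A barcode was taken as a cell when its UMIs reached 1/10 of a reference depth, the 99th percentile among the 3000 deepest barcodes, when 500 genes or more were detected in it, and when mitochondrial UMIs did not exceed 20%. That limit uses the members' own UMIs and removed 0, 7 and 1 barcodes. Doublets were kept, and cells were not clustered. UMIs were summed over cells, scaled to CPM and compared as log2 ratios of CPM + 1, or without the pseudocount where an interval is given. Intervals are exact conditional binomial for ratios and Clopper-Pearson for shares. For ratios between members, Wald intervals replaced the exact ones planned, as the counts behind them were at least 318 in the cells used; those of mt-Nd6 outside cells and in like-depth cells were fewer. All cover counting error only. No test was run, as every group is 1 library. The ratios and intervals were tested on simulated data.

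The members and lists were chosen with earlier results of these data known. Named genes were all members, the other mitochondrial mRNAs, the 2 highest and 2 lowest ratios of each list at either time, and the 5 nearest patterns, of which the text gives a part. Copies were sought with BLAST 2.17.0 among GENCODE M21 transcripts, where all 10 members were found. Alternatives covered the choice of cells, 4 other scalings, free RNA, cell weights, thinning, pseudocount and filter. TMM factors came from edgeR 4.0.16 under R 4.3.3, and all else from Python 3.11.15 with scipy 1.17.1, pandas 2.3.3 and numpy 2.4.6.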

Additional observations from a re-analysis of the deposited data

Results flagged for a closer look

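mt-Nd6, mt-Atp6 and the sum of the 10 genes lay on opposite sides of the control at the 2 times, with counting intervals that leave out 0. This difference was not tested, since each is 1 library. In log2 ratios without a pseudocount mt-Nd6 stood at -0.66 and 0.70, mt-Atp6 at 0.076 and -0.48, and the sum at 0.23 and -0.029. The sum at 6 h was above the control with free RNA subtracted or cells weighted equally, at 0.077 and 0.0052, and as UMIs per cell all 3 were below it at both times. Relative to the heavy-strand members, a ratio that no scaling changes, mt-Nd6 kept these opposite signs, at -0.90 and 0.73. As a share of the 10 genes' UMIs mt-Atp6 was below the control at both times, at 15.4% and 12.5% against 17.1%, so its opposite signs were seen in the scaled level only.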

How the results depend on the processing

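Scaling cannot move a ratio within the pool. Over the 9 alternatives that can, mt-Nd6 relative to the heavy-strand members and distal against proximal members kept their sign, though shares of mt-Nd1 and mt-Nd2 did not, as given above. mt-Nd6 relative to the heavy-strand members ranged from -1.30 to -0.87 at 3 h and from 0.42 to 0.75 at 6 h, with -1.30 and 0.42 (interval -0.0096 to 0.843) in cells of like depth (added after seeing the data) and 0.58 at 6 h after thinning to 4000 UMIs. Distal against proximal members stood at 0.53, 0.23 and -0.30 (6 h against 3 h) in cells of like depth, and at 6 h at 0.21 with equal weight for each cell and 0.22 after thinning. The summed level moved with nearly every choice, since its counting interval is very narrow. At 3 h it was 0.26 and 0.17 with the cell minimum halved and doubled, 0.18 and 0.24 with a mitochondrial limit of 10% and none, 0.25 without cells above 2 times the median UMIs, 0.24 scaled without mitochondrial genes, 0.47 and 0.42 with median-of-ratios and TMM factors, 0.38 with free RNA subtracted, 0.36 with cells weighted equally, 0.23 thinned, -1.80 as UMIs per cell and -1.23 at like depth. At 6 h, in the same order, it was -0.00060 and -0.048 for the minimum, -0.038 at the 10% limit, -0.016 without cells of many UMIs, -0.015 and -0.061 for the factors, 0.077 for free RNA, 0.0052 for equal weights, -0.11 thinned, -2.64 as UMIs per cell and -1.50 at like depth. Between 6 h and 3 h it was -0.26 and -0.22, -0.22 and -0.27 for the limits, -0.27 without mitochondrial genes, -0.49 and -0.48, -0.31, -0.35, -0.34, -0.84 and -0.27. Members past the size rule of 25% up or 20% down numbered 5 at 3 h and 6 at 6 h, 7 at 3 h with free RNA subtracted, equal weights or either factor, 4 and 5 among genes of at least 50 CPM, and 10 and 10 as UMIs per cell and 9 and 9 at like depth, those of the last 2 settings all lower. Under these 2 settings every member was below the control at both times. Of members past the size rule UMIs per cell reversed, at 3 h, mt-Nd4 to -1.38, mt-Nd5 to -0.52, mt-Co1 to -1.63 and mt-Cytb to -1.41, and at 6 h mt-Nd2 to -1.89, mt-Nd4 to -2.03, mt-Nd5 to -1.29 and mt-Nd6 to -1.81, and mt-Nd2 between the times to -0.074. At like depth the same genes against the control stood at -0.72, -0.059, -1.08 and -0.73 for 3 h and -0.81, -0.80, -0.30 and -1.06 at 6 h. UMIs per cell carry depth by construction, and 68 control cells stand behind the like-depth values. The median of all genes shifted by 0.23 under median-of-ratios and 0.19 under TMM factors at 3 h. No paired analysis was possible because each group has 1 library, and for the same reason no replicate could be left out.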
